A study of Sus scrofa with 8 samples.

Results

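MYOD1, MYOG, MYF5 and MYF6, the myogenic regulatory factors, together with the MEF2 factors MEF2A and MEF2C, the acetylcholine receptor subunit CHRNA1 and the muscle caveolin CAV3, were followed in skeletal muscle of pigs on a high energy diet against pigs on a low energy diet. They were found as spots whose only gene symbol in the platform annotation is one of these 8 names. MYOD1, MYF6, MEF2C, CHRNA1 and CAV3 have 2 spots each, so 5 of the 8 genes, with 10 spots, were followed among the 2922 symbols on the array. MYOG, MYF5 and MEF2A have no named spot and were not analysed here.

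The study compared total RNA of pig skeletal muscle, labelled with 2 dyes, on 8 arrays that each carried 1 high energy and 1 low energy sample. The arrays form 4 couples, each hybridised with the high energy sample in dye 5 and again with it in dye 3. High energy sample 40 was set against low energy sample 49 in couple 1 and against sample 142 in couple 3, high energy sample 41 against 61 in couple 2, and the samples labelled ae (high energy) and be (low energy) against each other in couple 4. The labels give no strain, age, sex or name of the muscle, and do not say whether a sample is 1 animal or a pool. Errors over couples therefore cover only how far these couples differ, part of which may be technical. The 2 arrays of a couple carry the same samples, yet their log2 ratios correlated only between -0.043 and 0.079 over all spots. Each value is a log2 ratio, centred on the median of its array. The ratio is read as high over low energy, which is likely, since low energy is the reference in the design text and the labels put high energy in channel 2 on every array, but the sources used here do not state it. A turned value is given with each mean. It is the mean obtained when arrays with the high energy sample in dye 3 are multiplied by -1, and is the dye effect if the likely reading holds. The probes carry human gene names, and ratios give no level of a gene within a sample.

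As background, the myogenic regulatory factors are basic helix-loop-helix proteins that pair with E proteins and bind E-box sites in muscle genes. MYOD1 and MYF5 commit precursors to the muscle lineage, MYOG drives their fusion and differentiation, and MYF6 is the member of the family kept at the highest level in adult fibres of mammals. MEF2 proteins are MADS-box factors that act with them on contractile and metabolic genes. CHRNA1 encodes the subunit of the muscle nicotinic receptor that carries the acetylcholine binding site, is transcribed at the motor end plate and is a known target of the myogenic factors. CAV3 builds caveolae, the small pits of the sarcolemma, and sits beside the dystrophin complex. In a whole muscle sample, fewer cells of a type and less RNA per cell cannot be told apart.

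None of the genes passed the test for a difference between the diets. CAV3 and CHRNA1 had means above 0 and MYF6 and MEF2C means below 0, all with 95% intervals that included 0, and MYOD1 was measured on too few arrays to be tested. No gene had 1 sign on every array that measured it (0 of 5), but the share of all features that did was not counted. For CAV3 this rested on 1 array, that of couple 1 with high energy in dye 3, at -0.0009. The median subtracted from that array was 0.0085, so this sign came from the centring. Averaged over the dyes, 604 (16.6%) of the 3640 features with 4 couples had 1 sign in all of them. Of the 5025 features tested, 0 (0.0%) passed an adjusted p of 0.05 in limma, and 190 (3.78%) had an unadjusted p under 0.05. None of the 4 genes tested was among these 190. Their unadjusted p by limma was 0.11 for CAV3, 0.15 for CHRNA1, 0.16 for MEF2C and 0.22 for MYF6. The adjusted p of 0.996 that they share is the smallest of all features tested. It does not tell these genes apart and does not show equal levels.

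**Figure D1:**
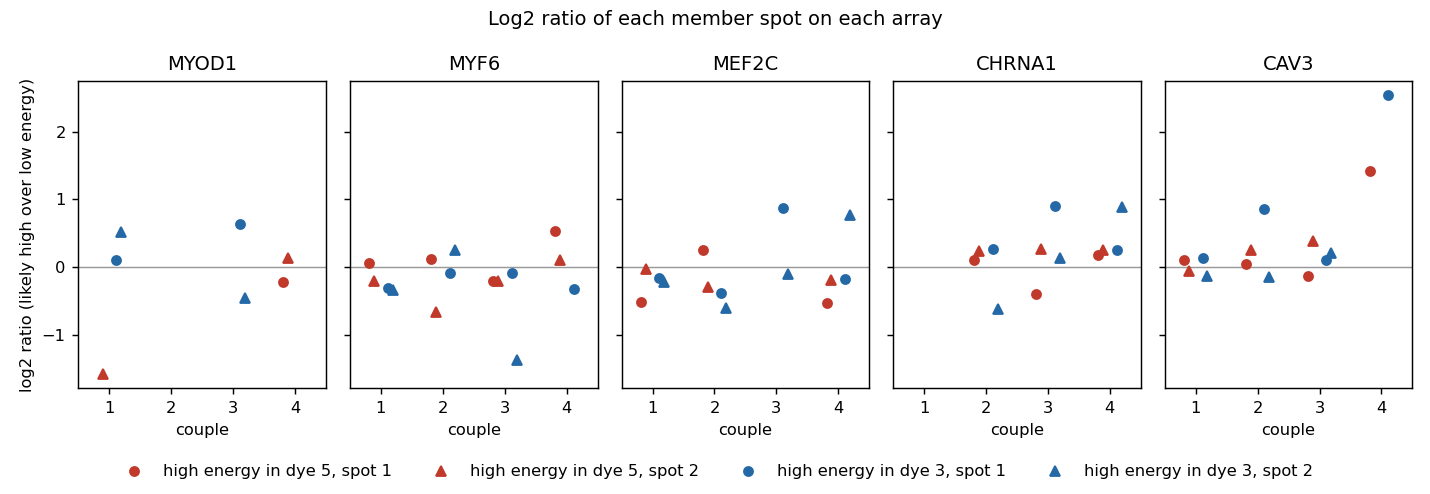
Log2 ratio (y axis, likely high over low energy) of each spot of the 5 genes on each array, by couple (x axis). Red marks arrays with high energy in dye 5 and blue those with it in dye 3, circles mark spot 1 and triangles spot 2. The values lie on both sides of 0 for every gene, and the CAV3 values of couple 4, at 1.42 and 2.54, stand above all others.

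MYOD1, the factor that commits cells to the muscle lineage, gave 7 spot values of 16 possible ones. With high energy in dye 5 it had -1.58 in couple 1 (spot 2 alone) and -0.043 in couple 4, and with high energy in dye 3 it had 0.31 in couple 1 and 0.092 in couple 3, as means over its spots. Couple 1 alone holds both dye orientations, and there the arrays lay on opposite sides of 0. The value of -1.58 is the logarithm of 1 over 3, so the recovered signal of that spot was 3. The recovered signal is the larger of the 2 whole numbers whose ratio, in lowest terms, gives the deposited value, and is a lower bound on the brightness of the spot. Values with a log2 recovered signal under 7 are called dim here. On that array 2.72% of the values had a recovered signal of 3 or less. With dim values left out, MYOD1 was measured on 3 arrays, above 0 on 2 and below 0 on 1.

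MYF6, the factor of adult fibres, was measured on all 8 arrays. As means over its spots it had -0.079, -0.28, -0.21 and 0.32 with high energy in dye 5, couples 1 to 4, and -0.32, 0.079, -0.73 and -0.33 with high energy in dye 3. It was below 0 on 6 arrays and above 0 on 2, which lie in couples 2 and 4, and there the swapped array had the other sign. Averaged over the dyes, MYF6 had -0.20 in couple 1, -0.098 in couple 2, -0.47 in couple 3 and -0.003 in couple 4. All 4 couples thus lay below 0, as did 332 (9.12%) of the 3640 features with 4 couples. Couple 4 lay at about 0, and its sign came from the centring. The median subtracted from its array with high energy in dye 3 was 0.0106. The mean log2 ratio was -0.16 ± 0.12 (limma's SE, n = 4 couples), with a 95% interval of -0.46 to 0.13, or 0.728-fold to 1.09-fold (adjusted p = 0.996 by limma, turned value 0.12).

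The lower MYF6 mean came mostly from spot 2. Tested on its own, spot 2 had -0.39 ± 0.21 over 3 couples and spot 1 had -0.019 ± 0.098 over 4 couples (limma's SE, adjusted p = 0.999 for both). The lowest single value was that of spot 2 in couple 3 with high energy in dye 3, at -1.37, where spot 1 on the same array had -0.083. Its recovered signal was 596, so this value does not come from a small ratio of whole numbers. Without couple 3 the mean of MYF6 was -0.10 (turned value 0.090), and with dim values left out it was -0.31 ± 0.22 (SE, n = 3 couples), so each moved the mean over 1.5 times.

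MEF2C, the MADS-box partner of the myogenic factors, was measured on 7 arrays. With high energy in dye 5 it had -0.27, -0.022 and -0.36 in couples 1, 2 and 4, and with high energy in dye 3 it had -0.19, -0.50, 0.39 and 0.30 in couples 1 to 4. The 2 arrays above 0 both carry high energy in dye 3, while all 3 arrays with it in dye 5 lay below 0. Averaged over the dyes, couples 1, 2 and 4 had -0.23, -0.26 and -0.033. Couple 3 lacks 1 orientation and did not enter the fit. The mean log2 ratio was -0.17 ± 0.10 (limma's SE, n = 3 couples), with a 95% interval of -0.45 to 0.10, or 0.733-fold to 1.07-fold (adjusted p = 0.996 by limma, turned value -0.044). Of the 1385 features with 3 couples, 205 (14.8%) likewise lay below 0 in each of them. With high energy in dye 3 alone, where couple 3 counts, the mean was -0.021 ± 0.22 (SE, n = 4 couples).

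CHRNA1, the acetylcholine receptor subunit, was measured on 6 arrays and had no value in couple 1. With high energy in dye 5 it had 0.18, -0.062 and 0.22 in couples 2 to 4, and with high energy in dye 3 it had -0.18, 0.52 and 0.56. Couples 2 and 3 each held 1 array above and 1 below 0, and in couple 4 both arrays and both spots lay above 0. Averaged over the dyes, the couples had -0.0013, 0.23 and 0.39. The mean log2 ratio was 0.21 ± 0.12 (limma's SE, n = 3 couples), with a 95% interval of -0.11 to 0.52, or 0.926-fold to 1.44-fold (adjusted p = 0.996 by limma, turned value -0.096). Its spots had similar means, 0.22 ± 0.10 for spot 1 and 0.19 ± 0.18 for spot 2 (SE, n = 3 couples each). The mean was 0.11 without couple 4 and 0.31 without couple 2, so each of these couples moved it over 1.5 times. With dim values left out it was 0.14 ± 0.14 (SE, n = 3 couples).

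CAV3, the muscle caveolin, had the largest mean of these genes, and that mean rested on couple 4. With high energy in dye 5 it had 0.029, 0.15, 0.13 and 1.42 in couples 1 to 4, and with high energy in dye 3 it had -0.0009, 0.36, 0.15 and 2.54. Couples 1 to 3 averaged 0.014, 0.26 and 0.14, and couple 4 averaged 1.98. All 4 couples lay above 0, as did 272 (7.47%) of the 3640 features with 4 couples. The mean log2 ratio was 0.70 ± 0.37 (limma's SE, n = 4 couples), with a 95% interval of -0.22 to 1.62, or 0.860-fold to 3.08-fold (adjusted p = 0.996 by limma, turned value -0.20). That fit gives couples 1 and 3 less weight, as they share a high energy sample, and the plain mean over couples was 0.60 ± 0.93 (SD, n = 4). Without couple 4 the mean was 0.15 ± 0.11 (SE, n = 3 couples, adjusted p = 0.999 by limma).

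In couple 4 only spot 1 of CAV3 had a value, on both arrays. Its 2 values are the logarithms of 8 over 3, with high energy in dye 5, and of 47 over 8, with high energy in dye 3. The recovered signals of 8 and 47 compare with 97 to 2050 for the same spot in couples 1 to 3. A recovered signal of 8 or less was found for 0.817% of the values on the first of these arrays, and one of 47 or less for 4.84% on the second. Brighter signals can reduce to such small numbers, so the spot need not have been this dim. Both arrays lay above 0 with the dyes swapped. Of 2370 genes measured on both arrays of couple 4, only CAV3 had a ratio over 1 on each. It ranked 6 of 2801 genes on the first array and 16 of 2441 on the second. CAV3 enters with 1 spot, whereas genes with more spots measured enter as means, which lie nearer to 0 if their spots differ in sign. These ranks were read after the values were seen. With dim values left out, couple 4 had no CAV3 value and the mean was 0.11 ± 0.12 (SE, n = 3 couples, adjusted p = 0.991 by limma). Spot 2, which had no value in couple 4, had 0.085 ± 0.17 on its own (SE, n = 3 couples).

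**Figure D2:**
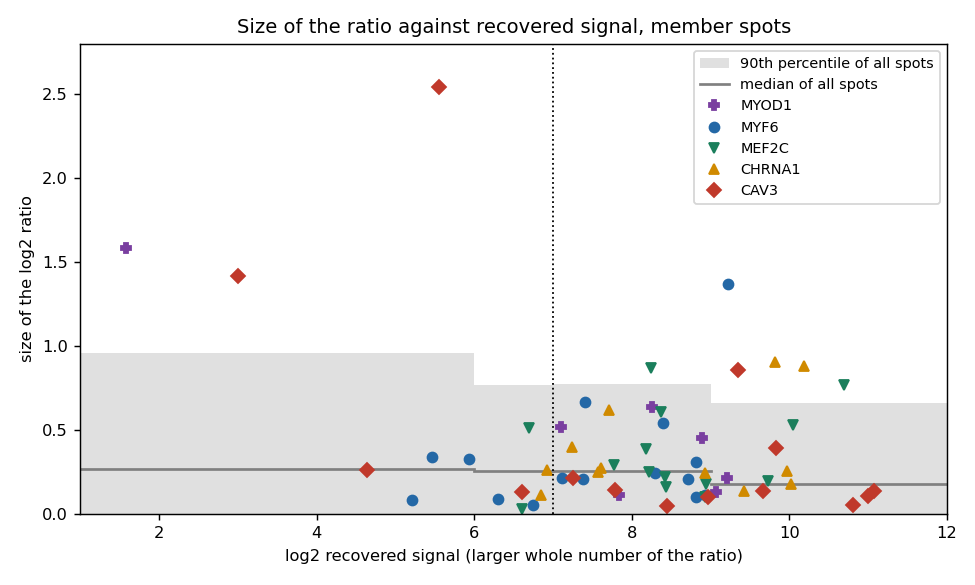
Size of the log2 ratio (y axis) against the recovered signal (x axis, log2) for every spot value of the 5 genes. The grey line and shading give the median and the 90th percentile over all spots in 4 ranges of signal, and the dotted line stands at 7, below which values are called dim. The CAV3 values of couple 4 and the MYOD1 value of -1.58 lie left of the line and above the shading, which pools all arrays. On the couple 4 arrays alone, the 90th percentile for log2 signals under 6 was 0.867 with high energy in dye 5. With high energy in dye 3 it was 2.38, close to the CAV3 value of 2.54 on that array.

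Of the 62 spot values of the 5 genes, 4 were over 1 in size, and 3 of these were dim: the CAV3 values of couple 4 and the MYOD1 value of couple 1. The fourth was the MYF6 value of -1.37. Over all spots, 8.99% of the values with a log2 recovered signal under 6 were over 1 in size, against 3.31% of those with 9 or more. The share under 6 differed between arrays. In couple 4 it was 7.35% with high energy in dye 5 and 23.0% with it in dye 3. On the couple 1 array of the MYOD1 value it was 1.64%. Of the 62 values of the 5 genes 14 (22.6%) were dim, against 16.6% of all spot values. They had a value in 62 of 80 cells (77.5%), against 87.5% over the array, and MYOD1, with 7 of 16, had the most gaps.

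The spots of a gene on the same array often differed, which gives a scale for the error of a single spot if both carry the same probe. CAV3 spots differed by 0.11 to 1.00 over 6 arrays, CHRNA1 spots by 0.078 to 0.88 over 6, MEF2C spots by 0.065 to 0.97 over 7, MYF6 spots by 0.0008 to 1.29 over 7 and MYOD1 spots by 0.35 to 1.09 over 3. The median difference was 0.65 for CHRNA1, 0.48 for MEF2C and 0.33 for MYF6, each larger than the mean of that gene over couples. These are differences between single spots on 1 array and not errors of the means, whose SEs were 0.12, 0.10 and 0.12. For CAV3 it was 0.24, from couples 1 to 3 alone, as spot 2 had no value in couple 4. The CAV3 mean was 0.15 without couple 4, below this difference, and 0.70 with couple 4. Both spots had the same sign in 15 of 29 cases (51.7%). Over all pairs of spots with 1 symbol, the share with the same sign was 53.5% to 60.0% per array, and the median difference was 0.233 to 0.312. The spots of these genes differed by more than that median in 20 of 29 cases. The sources used here do not say whether both spots carry the same probe.

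**Figure D3:**
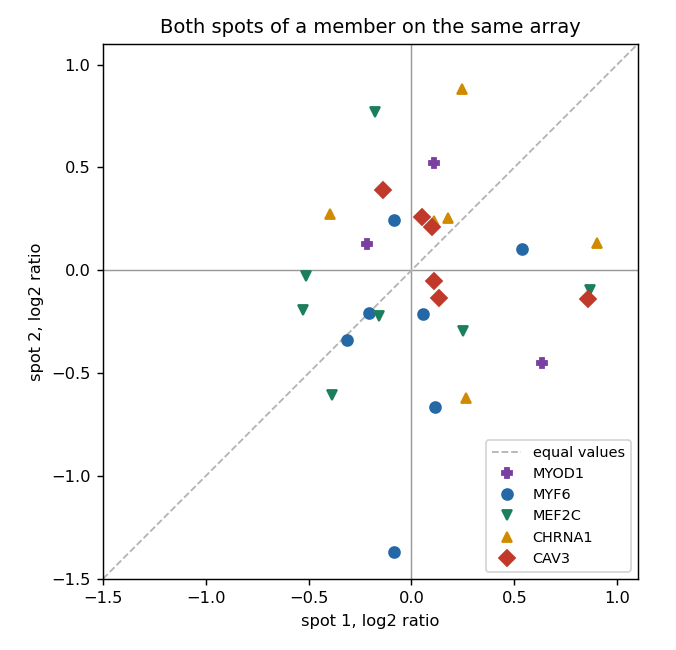
Log2 ratio of spot 2 (y axis) against spot 1 (x axis) of the same gene on the same array, for the 29 cases with both values. Points on the dashed line would have equal values, and points to the upper left and lower right of the zero lines have spots of opposite sign, which holds for all but 15.

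The arrays of a couple, with the dyes swapped, differed as well. For MYF6 the array with high energy in dye 5 minus that with high energy in dye 3 was 0.25, -0.36, 0.52 and 0.65 in couples 1 to 4. For MEF2C it was -0.081, 0.47 and -0.66 in couples 1, 2 and 4, and for CHRNA1 0.35, -0.58 and -0.35 in couples 2 to 4. None of these 3 genes kept 1 sign. CAV3 had 0.030, -0.20, -0.029 and -1.13, so outside couple 4 its arrays differed by at most 0.20 as means over its spots. The single spots differed more. In couple 2, spot 1 had 0.049 with high energy in dye 5 and 0.86 with it in dye 3. Spot 2 moved the other way there, from 0.26 to -0.14. The median size of this difference was 0.286 over the features tested and 0.249 over the genes among them. In limma's test of the dye orientation 0 of 5025 features (0.0%) passed, and 133 (2.65%) had an unadjusted p under 0.05. None of the 4 genes was among these, and each had an adjusted p of 0.998, the smallest of all features in that test.

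**Figure D4:**
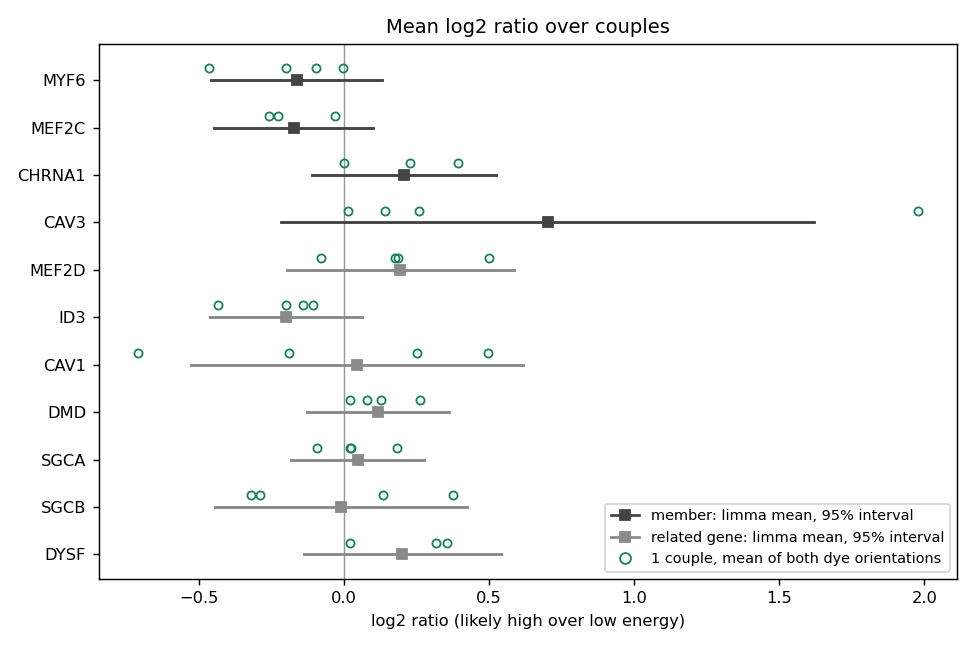
Mean log2 ratio over couples (squares, x axis, likely high over low energy) with limma's 95% interval for the 4 genes tested and, in grey, 7 related genes, with the values of single couples as open circles. Every interval includes 0, and the CAV3 circle of couple 4 at 1.98 lies apart.

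The SD over couples was 0.20 for MYF6 (n = 4), 0.12 for MEF2C and 0.20 for CHRNA1 (n = 3 each), and 0.93 for CAV3 (n = 4). The median was 0.209 over the features tested, which include single spots without a gene name, and 0.184 over the genes among them. MYF6 and CHRNA1 thus varied slightly less between couples than the median feature and slightly more than the median gene. MEF2C varied less and CAV3 more than both. The 4 tested genes had 2 means above and 2 below 0, with a median log2 ratio of 0.021, or -0.060 without couple 4. Over the 5025 features the median was -0.012, with 46.4% above 0. MYF6 and MEF2C, the transcription factors tested, lay below 0, and CHRNA1 and CAV3, the membrane genes, above it. In the related lists described below, 10 of 13 means of the transcription network lay above 0. Of the neuromuscular junction genes 3 of 4 lay above 0, and of the caveolae and sarcolemma genes 8 of 13 lay below it. With the swapped arrays turned, MYF6, CHRNA1 and CAV3 had the opposite sign and MEF2C kept its sign.

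Of the related transcription network, 15 of 41 listed genes had a named spot and 13 were tested. None rose or fell by limma's test, with 10 means above 0 and 3 below and a median of 0.047. MEF2D, another MEF2 factor, had -0.079, 0.19, 0.50 and 0.18 in couples 1 to 4 and a mean log2 ratio of 0.19 ± 0.16 (SE, n = 4 couples, turned value -0.097), or 0.094 without couple 3. ID3, which binds E proteins and so keeps them from the myogenic factors, had -0.20, -0.11, -0.43 and -0.14 and a mean of -0.20 ± 0.10 (SE, n = 4 couples, adjusted p = 0.996 by limma, turned value -0.10). ID3 was below 0 on all 8 arrays, and the share of all features with 1 sign on every array was not counted. Its value nearest 0 was -0.0011, in couple 4 with high energy in dye 3. The median subtracted from that array was 0.0106, so this sign came from the centring. Averaged over the dyes, ID3 and MYF6 both lay below 0 in every couple, as did 9.12% of the features with 4 couples. For MYF6 this includes couple 4 at -0.003, a sign that came from the centring. The spots of ID3 differed in sign when tested on their own, with 0.045 ± 0.17 and -0.54 ± 0.15 (limma's SE, adjusted p = 0.999 for both).

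Of 27 genes of the acetylcholine receptor and the neuromuscular junction, 4 were tested besides CHRNA1, and none was another subunit of the muscle receptor. ACHE, the esterase that clears acetylcholine, had a mean log2 ratio of 0.031, SCN4A, the sodium channel of muscle, 0.013, LAMB2, a laminin of the synaptic basal lamina, -0.051 and PRKAR1A, a regulatory subunit of protein kinase A, 0.066. None passed by limma's test, and none of the 4 means was as far from 0 as that of CHRNA1 at 0.21.

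Of 40 genes of caveolae, the dystrophin complex and the sarcolemma, 13 were tested besides CAV3 and none passed by limma's test, with 5 means above 0 and 8 below and a median of -0.012. CAV1, the caveolin of vessels and fat, had -0.19, 0.49, -0.71 and 0.25 in couples 1 to 4 and a mean of 0.043 ± 0.23 (SE, n = 4 couples, turned value -0.025), which turned sign without couple 2 (-0.15) or couple 4 (-0.046). DMD, or dystrophin, had 0.019, 0.078, 0.26 and 0.13 and a mean of 0.12 ± 0.098 (SE, n = 4 couples, turned value -0.014), or 0.075 without couple 3. SGCA and SGCB, sarcoglycans of the dystrophin complex, had 0.047 ± 0.092 (turned value 0.007) and -0.012 ± 0.17 (turned value 0.044; SE, n = 4 couples each), and SGCA had -0.012 without couple 2. DYSF, dysferlin of membrane repair, had 0.20 ± 0.13 over 3 couples (SE, turned value 0.025), or 0.33 without couple 2. DMD lay above 0 in all 4 couples and DYSF in the 3 couples with both dye orientations, as did 7.47% of features with 4 such couples and 10.3% of those with 3, while CAV1 and SGCB lay on both sides. In couple 4, where CAV3 had 1.98, the tested values of these genes had a median of 0.022.

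**Figure D5:**
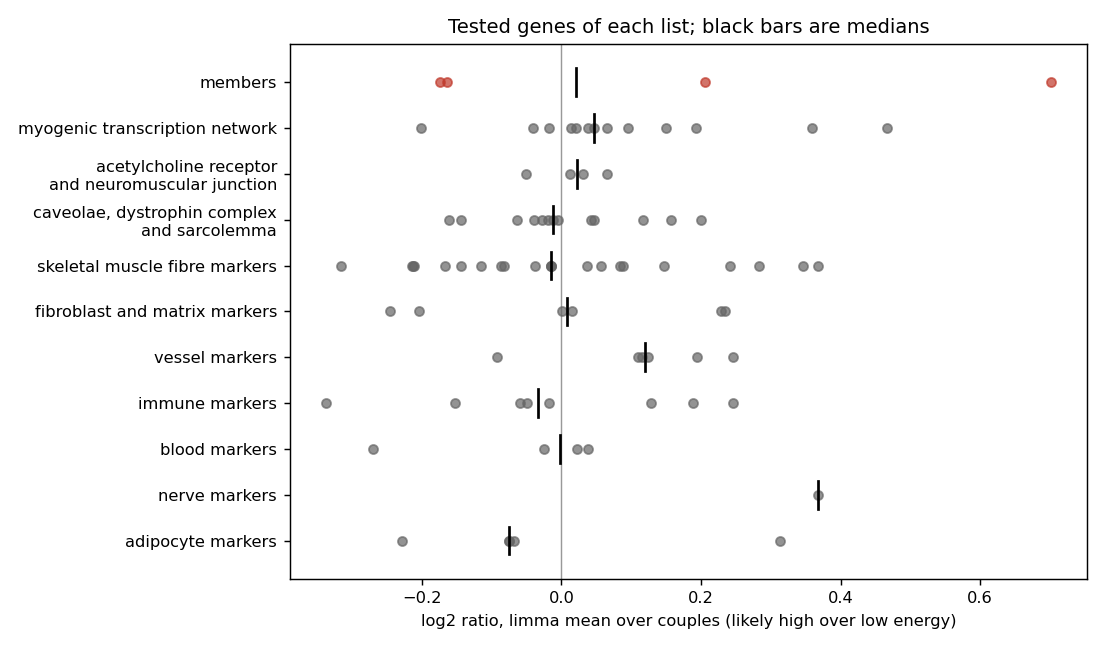
Mean log2 ratio over couples (x axis, likely high over low energy) of every tested gene, by list, with the median of each list as a black bar. The 4 red points are the genes followed here, from -0.17 to 0.70, and the medians of the 3 related lists lie between -0.012 and 0.047.

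The markers of skeletal muscle fibres had a named spot for 22 of 24 genes, all with a value on all 8 arrays, and ratios cannot show their level. Their mean log2 ratios ran from -0.32 to 0.37 with a median of -0.015, and the median in couple 4 was 0.019. None passed by limma's test, and 4 of the 22 had an unadjusted p under 0.05, MYL1 and PGAM2 above 0 and MB and TNNT1 below, against 3.78% of all features. In couple 4, where the CAV3 and CHRNA1 values were highest, the list medians were 0.16 for matrix (6 genes), 0.045 for vessels (5), 0.013 for immune cells (7), -0.17 for blood (4) and -0.093 for adipocytes (5), and the 1 nerve marker tested, S100B, had 0.76. Over couples these lists ran from -0.25 to 0.23 for matrix, -0.092 to 0.25 for vessels, -0.34 to 0.25 for immune cells, -0.27 to 0.038 for blood and -0.23 to 0.31 for adipocytes, and the nerve marker had 0.37. The part of these cells in the values of CAV3 and CHRNA1 was not tested.

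MYF6 and CAV3 have a value on all 8 arrays, so the genes with the most similar course over the arrays were sought for them among 1927 others. Closest to MYF6 were RNASET2 (Pearson's r = 0.91, Spearman's rho = 0.95), CHCHD3 (r = 0.89, rho = 0.67) and GOT1 (r = 0.84, rho = 0.83). Closest to CAV3 were CDC42 (r = 0.97, rho = 0.31), ZCCHC14 (r = 0.95, rho = 0.69) and NEDD4 (r = 0.94, rho = 0.76). Without couple 4 these were -0.20, 0.19 and 0.71 for CAV3 and 0.96, 0.95 and 0.95 for MYF6, so the likeness of CDC42 and ZCCHC14 to CAV3 rested on couple 4. The 8 arrays are 4 couples with shared samples and dyes, these genes are the highest of many, and the values are descriptions.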

How the data were processed

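The deposited table holds, per array, the log2 ratio of both channels, for 9984 spots on 8 arrays. That unit and the centring near 0 were read from the values, and no step of background correction, spot filter or normalization is given in the sources used here. RNA extraction, Cy3 and Cy5 labelling and a ScanArray LITE scanner are named in the authors' design text. Values were present for 77.6% to 94.4% of spots per array, and the number of arrays limits the precision. Arrays were centred on their medians and spots with the same symbol averaged, which gave 6296 features. A feature was tested when at least 3 couples had both dye orientations (5025 features, 2556 of them genes). Both arrays of a couple were averaged to 1 replicate. The mean over couples, each a pair of a high and a low energy sample, was tested against 0 with limma 3.58.1 (lmFit and eBayes, R 4.3.3), two-sided, blocking on the high energy sample at an assumed correlation of 0.5, with Benjamini-Hochberg adjustment over all features at 0.05. Couples 1 and 3, which share sample 40, correlated at 0.061 over features. The turned value was tested likewise. The script was tested on simulated data.

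The recovered signal is the larger number of the simplest whole-number ratio that gives a value to the digits deposited. The lesser number was under 5000 for 85.9% to 97.1% of the values of an array, and for the rest the recovered signal may be arbitrary. Arrays of one dye orientation correlated between -0.029 and 0.069 over spots, and the arrays of a couple between -0.043 and 0.079. Python 3.11.15 with pandas 2.3.3 was used for the tables. The genes and lists were chosen with earlier results of these data known. Named were all genes followed that have a spot, the closest partners marked in the related lists, and the 3 genes most like each gene measured on all arrays. The alternatives tried concern centring, scaling, spots, dyes, direction, dim values, blocking and single couples.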

Additional observations from a re-analysis of the deposited data

Results flagged for a closer look

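For CAV3, couple 4 stood apart from the other couples, with a log2 ratio of 1.98 against 0.014 to 0.26. The gap to the nearest couple was 0.877 of the whole range, above Dixon's 95% critical value for 4 values. This was the only such case among 8 genes with 4 couples. Chance gives about 1 in 20 for a single gene with independent, normally distributed values. At least 1 case among 8 genes is therefore likelier than 1 in 20. Some couples share a high energy sample, so their values are not independent. The share of all features with such a couple was not counted, so how unusual the case is was not tested. The value rests on 1 spot, with recovered signals of 8 and 47.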

How the results depend on the processing

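Under the alternatives, 0 features passed in all 22 counts, diet and dye orientation together. Of 69 alternative values for the genes followed, 66 kept their sign. The other 3 came from turning the swapped arrays, which gave MYF6 0.12, CHRNA1 -0.096 and CAV3 -0.20. Some of the 66 could not differ from the main value. For a pair of spots the median is the mean, and changing the number of couples needed refitted the same values. Leaving out a couple without a value did so too, as for MEF2C without couple 3. The count of kept signs is therefore no measure of stability. Leaving out 1 couple gave -0.23 to -0.10 for MYF6, -0.24 to -0.13 for MEF2C, 0.11 to 0.31 for CHRNA1 and 0.15 to 0.89 for CAV3. For the turned value it gave 0.033 to 0.25 for MYF6, -0.18 to 0.098 for MEF2C, -0.23 to 0.0018 for CHRNA1 and -0.24 to -0.044 for CAV3, whose nearest to 0 was without couple 4. Turned, MEF2D had -0.097, CAV1 -0.025, DMD -0.014 and SGCB 0.044. CAV1 had -0.039 with independent couples and with all 8 arrays, and -0.15 to 0.18 without 1 couple (-0.046 without couple 4). SGCA had -0.012 to 0.074 and SGCB -0.18 to 0.11 without 1 couple (0.073 without couple 3). SGCB had 0.024 without dim values and 0.032 with high energy in dye 5 alone. Single spots turned for ID3 (0.045), CAV1 (-0.016 and -0.14), DMD (-0.0058 and -0.016) and SGCB (0.049). The causes were not tested. The limit on dim values left MEF2C, and the need for 4 couples left MEF2C and CHRNA1, without a fit. Features with an unadjusted p under 0.05 numbered 190 in the diet test, 310 with independent couples, 353 with all 8 arrays, 213 with high energy in dye 3 alone and 108 with it in dye 5 alone. The number of couples limits the precision, and each interval in the report gives the range it allows.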

Other observations

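Among the related transcription genes, CALR and MUSTN1, chosen after their values were seen, had the highest means. MUSTN1, a small nuclear protein of muscle and bone, had log2 ratios of 0.60, 0.45, -0.024 and 0.36 in couples 1 to 4, with a mean of 0.36 ± 0.17 (limma's SE, n = 4 couples, adjusted p = 0.996, turned value -0.0001). It was above 0 in 3 of 4 couples, and its turned value was close to 0. CALR, the calcium-binding chaperone calreticulin, had -0.062, 0.40, -1.13 and 1.95 (mean 0.47 ± 0.52, SE, n = 4 couples, turned value 0.42). Its couple 4 value was close in size to that of CAV3 at 1.98, but CALR did not have a ratio over 1 on both arrays of couple 4. In couple 3 CALR lay on the other side of 0. Of 2370 genes measured on both arrays of couple 4, only USP4, also chosen after its values were seen, had a ratio under -1 on each. Among the same genes only CAV3, measured there by 1 spot, had a ratio over 1 on each.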
